A study of Mus musculus with 5 samples.

Results

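The centromere-proximal 5 Mb of the mouse autosomes were described by the first principal component (PC1) of Hi-C contacts in hippocampal neuronal nuclei. The members were all bins with a value in every library whose start lay less than 5 Mb above the lowest listed start of their chromosome, on the 18 autosomes other than chromosome 7. This gave 1685 of the 50542 bins of 50 kb that had a value in all 5 libraries, which is 84.25 Mb and 3.77% of the 44650 bins of those autosomes. Another 32 bins of these windows lacked a value in at least 1 library. Chromosome 14 kept only 10 of its 30 listed bins, and every other window kept at least 89. Coordinates are 1-based in mm9, and the first member bin started between 2950001 and 3200001 on 17 chromosomes and at 4400001 on chromosome 14. Chromosome 7 was left out because the lowest correlation between a pair of libraries there was -0.976.

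Hi-C ligates DNA fragments that are neighbours in the nucleus and sequences the joined ends. Nuclei stained for the neuronal marker NeuN and for GFP had been sorted from the hippocampus of ArcCreERT2 x R26R-STOP-floxed-eYFP mice of genotype +/+. In these mice the Arc gene, which responds to neuronal activity, drives a tamoxifen-dependent Cre, and Cre removes the stop before a yellow fluorescent reporter. The libraries were titled Basal (2), Early (1) and Late (2). All 5 carry the same treatment label, foot shock and collection on day 0 without recall, so what sets the 3 states apart is known only from the titles. All groups therefore share the alleles, the labelled foot shock and, per the protocol, a dose of 4-Hydroxytamoxifen before fear conditioning. Each group's libraries were made from 100000 nuclei taken from 2 animals. The protocol speaks of biological replicates, but whether replicates hold different animals is not stated, so the p-values may measure technical spread. The other Early library was not analysed here.

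Mouse chromosomes are telocentric, with the centromere at the very start of the sequence. Long arrays of satellite repeats lie there, packed as constitutive heterochromatin marked by histone H3 lysine 9 trimethylation, and in neurons the arrays of several chromosomes cluster in chromocenters. The proximal bins are the first unique sequence beyond these arrays. Hi-C divides the genome into compartment A, open and gene-rich, and compartment B, closed and often at the nuclear periphery or around chromocenters. In the convention of HOMER, the program that made these values, a positive PC1 marks A and a negative PC1 marks B. The way the submitters set the sign is not stated in the sources used here. PC1 is centred and scaled within each chromosome, so a proximal mean says where a chromosome's start lies relative to the rest of that chromosome. The files hold neither expression nor read counts, so the neuronal identity could not be checked and the depth is unknown.

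Libraries of a group were the most alike over the proximal bins. Pearson's r over the 1685 bins was 0.962 between the Late libraries and 0.986 between the Basal libraries. It was 0.911 to 0.939 between a Late and a Basal library, and 0.900 and 0.905 between Early and the Basal libraries. The bins of a library share reads with their neighbours, so these are descriptions without a test. Noise between neighbouring proximal bins was 0.0993 and 0.119 PC1 units in Basal, 0.215 in the Early library, 0.103 in Late replicate 1 and 0.212 in Late replicate 2. Early and Late replicate 2 were thus about equally noisy and stood above the other 3 libraries. The part of this noise in the counts of changed bins was not tested, beyond the fit weighted by it.

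The proximal 5 Mb leaned toward compartment B. Their mean PC1 was -0.233 and -0.233 for Basal, -0.251 for Early, and -0.233 and -0.222 for Late. Over the 42965 other bins of the same chromosomes the mean was 0.0114 and 0.0114 for Basal, 0.0099 for Early, and 0.0097 and 0.0090 for Late. The proximal mean lay below that of the rest in all 5 libraries, which largely follows from a mean below 0 because PC1 is centred within each chromosome. The opposite chromosome ends went the other way: the distal 5 Mb, 1787 bins, averaged 0.440 and 0.442 for Basal, 0.422 for Early, and 0.356 and 0.329 for Late. The share of proximal bins in compartment A was 38.0% and 37.7% for Basal, 38.0% for Early, and 35.7% and 37.2% for Late. In the rest the shares were 47.3% and 47.3% for Basal, 49.7% for Early, and 48.7% and 49.0% for Late.

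The lean toward B was an average over unlike chromosomes. The mean PC1 of the proximal window was below 0 on 10 to 12 of the 18 chromosomes, depending on the library, and above 0 on the others. The windows of chromosomes 9 and 3 were the deepest in B. The chromosome 9 window averaged -1.44 and -1.46 for Basal, -1.61 for Early, and -1.42 and -1.44 for Late, and 95 of its 100 bins were in B in all 5 libraries. The chromosome 3 window averaged -1.28 and -1.28 for Basal, -1.23 for Early, and -0.948 and -0.901 for Late, with 97 of 100 bins in B throughout. At the other extreme, the chromosome 19 window averaged 0.841 and 0.868 for Basal, 1.45 for Early, and 0.830 and 0.673 for Late, and 81 of its 98 bins were in A in every library. The windows of chromosomes 11, 17 and 2 also averaged above 0, with group means from 0.398 to 0.683, and that of chromosome 16 did in Basal and Late. The windows of chromosomes 10 and 12 averaged near the border of A and B, with group means between -0.0750 and 0.147. Their bins spread widely around that mean, with an SD over bins of 0.767 on chromosome 10 and 1.06 on chromosome 12 in Basal, and both compartments occurred there.

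**Figure D1:**
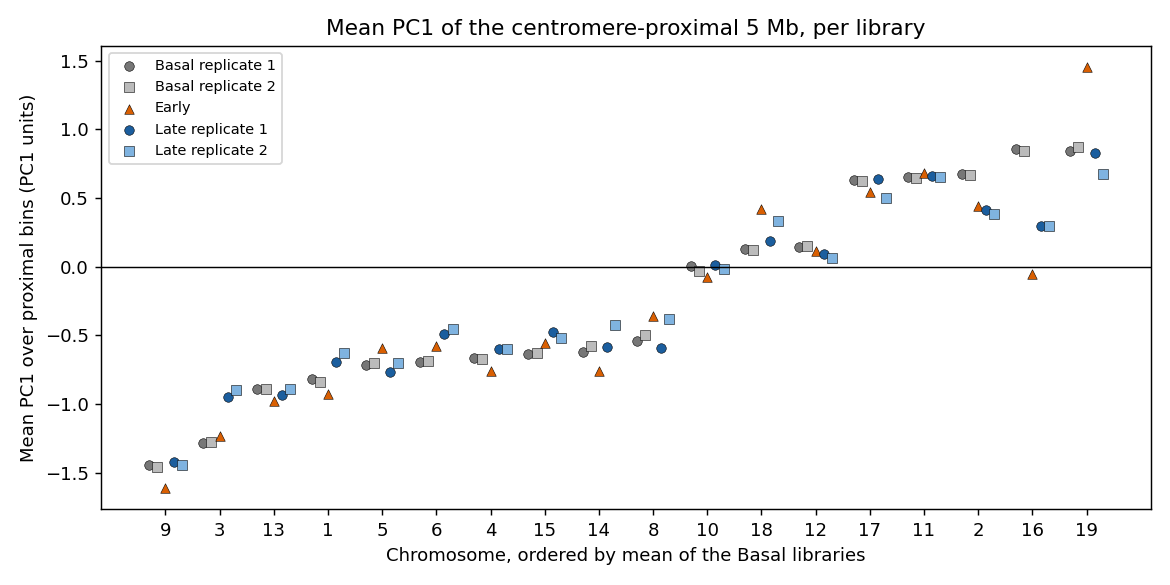
Mean PC1 over the bins of the centromere-proximal 5 Mb (y axis, PC1 units) for each of 18 autosomes (x axis, ordered by the mean of the Basal libraries), 1 point per library: Basal grey, Early orange triangle, Late blue. Chromosome 9 lies lowest, at -1.42 to -1.61, and chromosome 16 is spread between -0.0564 in Early and 0.853 in Basal replicate 1.

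Averaged over the autosomes, PC1 varied with distance from the start, but single chromosomes departed from this average course. At 2 Mb chromosome 3 had -1.67 and -1.48 in Basal, and at 4.95 Mb chromosome 2 had 0.522 and 0.741 in Basal. In the first 0.5 Mb (158 bins) the average PC1 was -0.454 and -0.463 for Basal, -0.468 for Early, and -0.327 and -0.282 for Late. It was highest around 2 Mb. Between 2 and 2.5 Mb the means were 0.0661 and 0.0705 for Basal, -0.0134 for Early, and 0.0800 and 0.0517 for Late. It was low again at the far edge: from 4.5 to 5 Mb, the bins just inside the limit, the means were -0.581 and -0.567 for Basal, -0.557 for Early, and -0.633 and -0.630 for Late. Just outside it, from 5 to 5.5 Mb, they were -0.406 and -0.374 for Basal, -0.357 for Early, and -0.463 and -0.386 for Late. The level at the start was not the lowest of the first 15 Mb. From 12 to 12.5 Mb the mean was -0.797 and -0.810 for Basal, -0.729 for Early, and -0.769 and -0.750 for Late, below every step of the proximal 5 Mb.

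**Figure D2:**
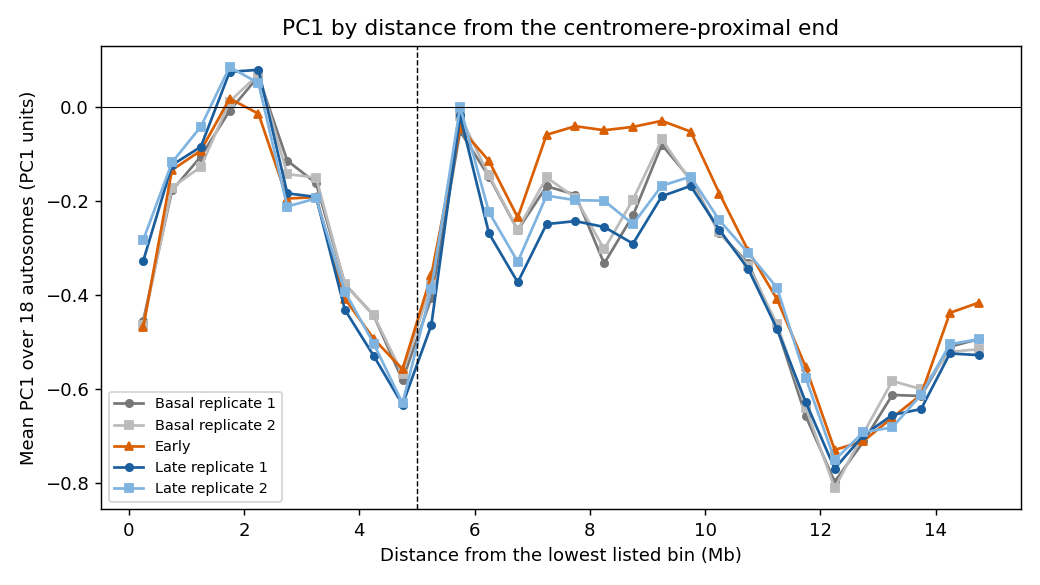
Mean PC1 over 18 autosomes (y axis, PC1 units) in steps of 0.5 Mb against the distance from the lowest listed bin (x axis, Mb), 1 line per library. The dashed line marks the 5 Mb limit. In the first 0.5 Mb both Late libraries (-0.327 and -0.282) lie above both Basal libraries (-0.454 and -0.463), and all 5 are lowest between 12 and 12.5 Mb.

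Of the 1685 proximal bins, 908 (53.9%) were in B and 484 (28.7%) in A in all 5 libraries, and 293 (17.4%) changed sign between libraries. Over the rest of the same chromosomes 42.5% were always in B, 39.5% always in A and 17.9% mixed. The share of bins that changed sign was thus close to that of the rest, while the stable bins were shifted toward B. Mixed bins were unevenly spread: 49 of 96 on chromosome 16, 41 of 100 on chromosome 10, 32 of 99 on chromosome 6 and 26 of 100 on chromosome 2. Chromosomes 11, 3 and 9 had 2, 3 and 3.

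Late and Basal were compared to ask whether the chromosome starts lie in a different compartment in the Late state. Averaged over all proximal bins the difference was smaller than the spread between the Late libraries, while single windows moved in opposite directions. The proximal mean was -0.228 ± 0.0076 in Late and -0.233 ± 0.00022 in Basal (SD, n = 2 each), a difference of 0.0055 (2-sided exact permutation test, p = 0.667, where the smallest p possible is 0.333). Relative to the rest of the chromosomes the proximal mean was -0.237 ± 0.0081 in Late and -0.245 ± 0.00020 in Basal (SD, n = 2 each), with an exact permutation p of 0.333, the smallest this design allows. With PC1 centred per chromosome, the mean of the rest largely follows from the proximal mean, so this is not a separate test. At the distal ends Late was the lower group, at 0.343 ± 0.020 against 0.441 ± 0.00095 in Basal (SD, n = 2 each, exact permutation p = 0.333). The spread of PC1 over proximal bins was smaller in Late. Its lower and upper quartiles were -1.02 and 0.482 in Late replicate 1 and -0.974 and 0.510 in Late replicate 2, against -1.09 and 0.595 and -1.08 and 0.639 in the Basal libraries.

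Window by window, limma called 6 of the 17 proximal windows that had enough bins to test (adjusted p under 0.05 over 483 windows). They were 4 windows with a mean below 0 that were higher in Late, on chromosomes 1, 3, 6 and 15, and 2 with a mean above 0 that were lower in Late, on chromosomes 2 and 16. Over all 483 windows of 5 Mb 23.2% were higher and 21.5% lower in Late, so 4 and 2 of 17 do not stand above the background. Chromosome 3 had -0.948 and -0.901 in Late and -1.28 and -1.28 in Basal, a difference of 0.354 ± 0.029 (SE, limma adjusted p = 0.000977). The groups did not overlap, and Early, at -1.23, lay beside Basal. With a 10 Mb running mean subtracted, the chromosome 3 difference was 0.056 and 0 of its bins were called higher. Such a mean takes up part of a shift that spans a whole window. The differences of chromosomes 6, 2 and 16 were then 0.034, 0.0048 and -0.016. Chromosome 6 had -0.487 and -0.456 in Late and -0.696 and -0.687 in Basal (difference 0.220 ± 0.027 SE, limma adjusted p = 0.00319). Chromosomes 1 and 15 differed by 0.168 and 0.133, and both calls were lost without Basal replicate 1 (limma adjusted p = 0.0648 and 0.194) and without Basal replicate 2 (0.118 and 0.175).

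The 2 windows lower in Late were on chromosomes 16 and 2. Chromosome 16 had 0.298 and 0.298 in Late and 0.853 and 0.843 in Basal, a difference of -0.550 ± 0.025 (SE, limma adjusted p = 0.000201). Chromosome 2 had 0.416 and 0.380 in Late and 0.678 and 0.664 in Basal, a difference of -0.273 ± 0.028 (SE, limma adjusted p = 0.00186). In each the libraries of a group lay closer together than the groups did. Both windows averaged above 0 in both groups, but fewer bins were in A in Late: 55.2% and 60.4% in Late against 85.4% and 87.5% in Basal on chromosome 16, and 73% and 76% in Late against 93% and 93% in Basal on chromosome 2. The windows of chromosomes 9, 10 and 11 differed by 0.0189, 0.0128 and 0.0060, each less than its SE, and did not pass. Leaving out Late replicate 1 or 2 raised the number of called windows to 12 or 11.

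**Figure D3:**
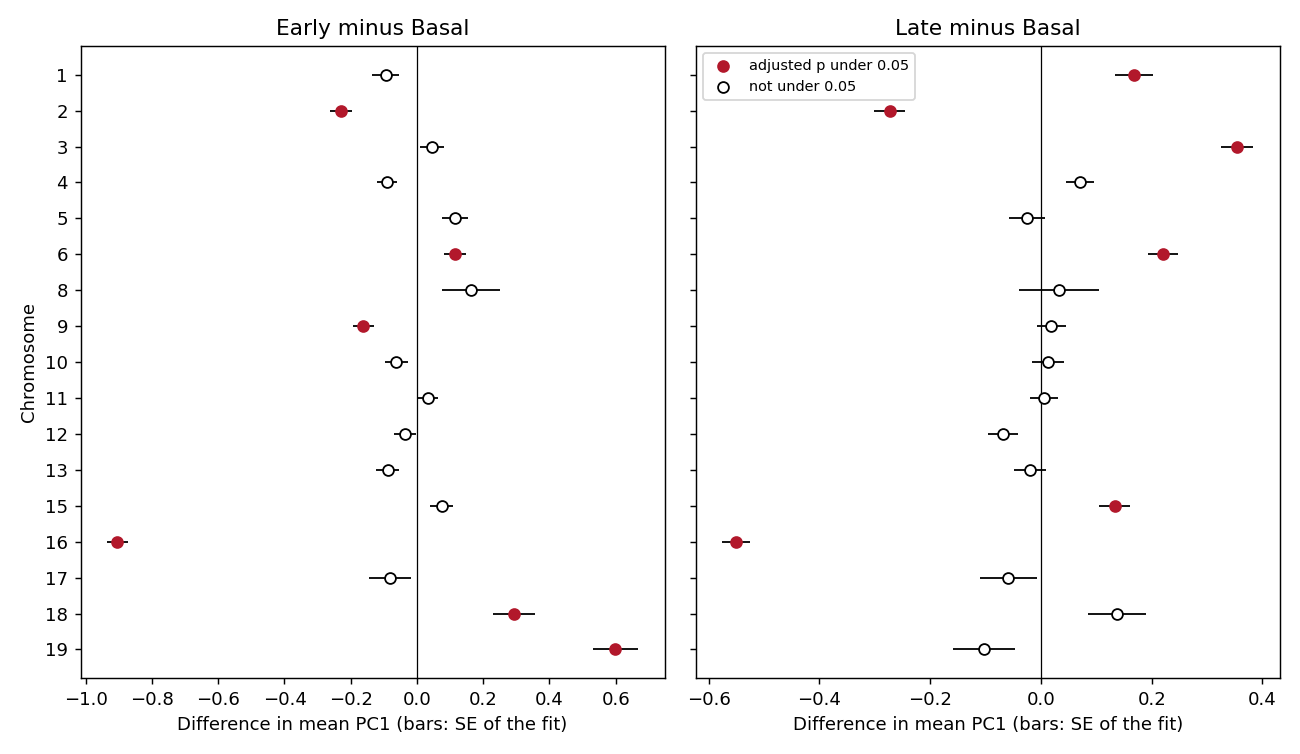
Difference in mean PC1 of the proximal 5 Mb (x axis, PC1 units) for 17 autosomes (y axis), Early minus Basal on the left and Late minus Basal on the right, with bars of 1 SE from limma and filled points where the adjusted p over 483 windows was under 0.05. Chromosome 16 is lowest in both panels, at -0.904 and -0.550, and chromosome 19 stands at 0.599 in the Early panel and -0.103 in the Late panel. Both panels share the Basal libraries, and their x axes differ in range.

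Bin by bin, limma called 139 proximal bins higher and 117 lower in Late (adjusted p under 0.05 over 47652 bins). That is 8.25% and 6.94% of the members, against 8.78% and 7.63% of all analysed bins, X included. In the rest of the same autosomes the shares were 7.71% and 6.52%. The proximal shares were thus a little above the rest of their chromosomes and a little below all analysed bins. The called bins gathered on a few chromosomes. Of the 117 lower bins 49 were on chromosome 16 and 32 on chromosome 2, and of the 139 higher bins 38 were on chromosome 3 and 20 on chromosome 6. Without chromosome 16 there were 68 lower bins. The median difference was 0.535 among higher and -0.726 among lower bins. On chromosome 16 51.0% of proximal bins were called, against 17.2% in the rest of that chromosome, and on 11 of the 18 chromosomes the proximal share was the smaller. A fit without a Basal or a Late library takes its spread from the other pair alone, and the counts moved widely between such fits. The chromosome 16 window difference was -0.545 without Basal replicate 1 and -0.555 without Basal replicate 2. That of chromosome 1 was 0.203 without Late replicate 1 and 0.133 without Late replicate 2. With all sequences kept as deposited, chromosome 7 included, limma called 0 and 0. In the fit used here 283 and 234 of the members had an unadjusted p under 0.05.

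The longest proximal region that was lower in Late spanned 1900 kb on chromosome 16 from 5300001 to 7200000. Its PC1 was 0.0133 and 0.0240 in Late and 1.11 and 1.04 in Basal, a difference of -1.06 with a limma adjusted p of at most 0.0356 in each of its 38 bins. On average it lay at the border in Late and well inside A in Basal, and Early, at -0.0548, averaged at the border too. Single bins spread around these averages. Late had 0.822 and 0.883 at 2.25 Mb from the lowest listed bin, and -0.159 and -0.786 at 3.05 Mb. The chromosome 2 region from 6350001 to 7950000 had -0.139 and -0.111 in Late and 0.735 and 0.709 in Basal, a difference of -0.847 with an adjusted p of at most 0.0492 in 31 bins. On average it lay below 0 in Late and in A in Basal, and Early was between them at 0.320. Late fell along this chromosome 2 region and crossed 0 within it. It had 0.422 and 0.119 at 3.4 Mb from the lowest listed bin, and -0.695 and -0.720 at 4.95 Mb. With a 10 Mb running mean subtracted, the differences were -0.528 on chromosome 16 and -0.642 on chromosome 2, and 19 and 26 of the bins stayed called. The other 3 lower regions named by the rule lay on chromosome 16 (-0.777 between 7.60 and 8.00 Mb, -0.717 between 7.30 and 7.45 Mb) and on chromosome 10 (-0.697 between 3.35 and 3.50 Mb). Those on chromosome 16 lost their call with the mean subtracted, and those from 7.30 and from 3.35 Mb lost it without Basal replicate 1.

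The largest rise in Late was on chromosome 10 from 6350001 to 6750000. PC1 there was 0.172 and 0.252 in Late and -0.594 and -0.596 in Basal, a difference of 0.807 with a limma adjusted p of at most 0.0237 in 8 bins. The region lay in A in both Late libraries and in B in both Basal libraries, and Early, at -0.405, was in B. All 8 bins stayed called with the 10 Mb mean subtracted, with a difference of 0.964. In the whole chromosome 10 window 16 bins were called higher and 9 lower in Late, and its mean did not pass. The other named rises were on chromosome 15 (0.746 between 6.55 and 6.95 Mb, 0.694 between 7.35 and 7.50 Mb) and on chromosome 18 (0.698 between 5.30 and 5.50 Mb, 0.692 between 4.85 and 4.95 Mb). Each of these 4 lost its call without at least 1 of the Basal replicates, and those on chromosome 15 also with the 10 Mb mean subtracted. A region was taken to keep its call where at least as many of its bins were called as not.

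By sign, 33 proximal bins (1.96%) were in B in both Basal libraries and in A in both Late libraries, and 60 (3.56%) the reverse. Over all analysed bins these shares were 3.13% and 2.62%. Of the 60 bins in B in Late 21 lay on chromosome 16 and 16 on chromosome 2, and of the 33 bins in A in Late 11 lay on chromosome 10. Requiring each library to lie at least 0.1 from 0 left 15 and 36, and without Late replicate 1 there were 66 and 82.

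In the first 0.5 Mb most chromosomes lay higher in Late. Both Late libraries lay above both Basal libraries on 10 of the 17 chromosomes with values there, and below them on 1, chromosome 16. Over all 4515 segments of 0.5 Mb of the 18 autosomes, 36.3% lay above and 38.3% below in this way. The chromosome 6 start had -0.756 and -0.596 in Late and -1.12 and -1.16 in Basal. Limma called 26 bins of the first 0.5 Mb higher and 4 lower in Late, 16.5% and 2.53% of 158. From 0.5 to 5 Mb 113 bins were called in each direction (7.4%). Over all analysed bins the shares were 8.78% and 7.63%. For Early against Basal, limma called 27 bins of the first 0.5 Mb higher and 30 lower (17.09% and 18.99%). From 0.5 to 5 Mb it called 141 and 168 of 1527. Early lay above both Basal libraries on 7 of the 17 chromosomes and below them on 8. A raised share of called bins was thus not particular to Late, whereas only Late had more higher than lower bins there. Without the first 0.5 Mb the Late minus Basal difference over the members was -0.0098. This distance was looked at after the profile had been seen, and the contrast between the 2 distances was not tested.

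Early and Basal were compared to ask the same of the Early state, from 1 Early library whose spread is assumed to be that of the other groups. The proximal mean was -0.251 in Early and -0.233 ± 0.00022 in Basal (SD, n = 2), a difference of -0.0176 that rested on chromosome 16: without it the difference was 0.0360. In limma 3 of the 17 tested windows were higher in Early, on chromosomes 6, 18 and 19, and 3 were lower, on chromosomes 2, 9 and 16. Over all 483 windows 26.9% were higher and 24% lower in Early. Chromosome 16 changed most, with -0.0564 in Early against 0.853 and 0.843 in Basal, a difference of -0.904 ± 0.031 (SE, limma adjusted p = 3.91e-05). Chromosome 19 changed the other way, with 1.45 in Early against 0.841 and 0.868 in Basal, a difference of 0.599 ± 0.068 (SE, limma adjusted p = 0.00276). On both, Early lay outside the range of the Basal libraries, and both Late libraries lay between Early and Basal on chromosome 16 and below Basal on chromosome 19. Chromosomes 16 and 19 also had the lowest correlations between a pair of libraries among the kept autosomes, 0.732 and 0.739. Outside the proximal window 41.9% and 42.9% of their bins were called for Early against Basal, against 17.6% over the rest of all 18 autosomes. The differences were thus not confined to their starts.

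The other 4 called windows changed less, and those of chromosomes 6 and 9 lost their call under some alternatives. Chromosome 18 had 0.417 in Early against 0.130 and 0.121 in Basal (difference 0.292 ± 0.064 SE, limma adjusted p = 0.0162). Chromosome 2 had 0.442 in Early against 0.678 and 0.664 in Basal (-0.229 ± 0.034 SE, limma adjusted p = 0.00585). Chromosome 9 had -1.61 in Early against -1.44 and -1.46 in Basal (-0.162, limma adjusted p = 0.0127), but with quantile-normalized values the difference was 0.020 and not called (adjusted p = 0.724). Chromosome 6 differed by 0.115 (limma adjusted p = 0.0373) and was not called with quantile-normalized values (adjusted p = 0.0689). Neither chromosome 6 nor chromosome 9 passed without Basal replicate 1 (limma adjusted p = 0.340 and 0.159) or without Basal replicate 2 (0.283 and 0.124). With either Late library left out of the shared spread, 14 windows were called.

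Per bin, limma called 168 proximal bins higher and 198 lower in Early. That is 9.97% and 11.8% of the members, against 9.97% and 9.98% of all analysed bins, X included. In the rest of the same autosomes the shares were 8.82% and 8.80%. Of the higher bins 51 were on chromosome 19, 24 on chromosome 18 and 23 on chromosome 8, and of the lower bins 77 were on chromosome 16 and 23 on chromosome 2. Without chromosome 16 there were 121 lower bins, 7.61% of 1589. On chromosome 16 80.2% of proximal bins were called, against 41.9% in the rest of that chromosome, and on chromosome 19 52.0% against 42.9%. Higher and lower bins numbered 70 and 84 without Basal replicate 1, 88 and 88 without Basal replicate 2, and 318 and 353 when either Late library was left out. They numbered 61 and 70 with libraries weighted by their noise, and 31 and 49 with all sequences as deposited.

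The Early falls on chromosome 16 formed 4 of the 5 named regions. From 5700001 to 7150000 PC1 was -0.187 in Early and 1.09 and 1.03 in Basal, a difference of -1.25 with a limma adjusted p of at most 0.0409 in 29 bins. From 4350001 to 5050000 it was 0.817 in Early and 1.77 and 1.76 in Basal. The Late libraries had -0.0909 and -0.130 in the first region and 1.78 and 1.79 in the second, so Early and Late were both low in the first and only Early was low in the second. The named regions at 7.25 to 7.95 Mb and 5.15 to 5.60 Mb differed by -1.08 and -0.936. All 4 lost their call with a 10 Mb mean subtracted, where their differences were between -0.438 and -0.0814. The fifth lay at the very start of chromosome 13, from 3050001 to 3650000, with -2.01 in Early against -1.05 and -1.17 in Basal. All 12 of its bins stayed called with the mean subtracted. With quantile-normalized values the difference was -0.633 instead of -0.908, and 6 of the 12 bins were called.

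The named Early rises were shorter. The largest was on chromosome 15 from 6750001 to 7200000, with 1.35 in Early against 0.0416 and 0.202 in Basal, a difference of 1.23 with a limma adjusted p of at most 0.0160 in 8 bins. Late was also higher than Basal there, at 0.742 and 0.689, below Early. Chromosome 9 from 7850001 to 7950000, within a window otherwise deep in B, had 0.122 in Early against -0.916 and -0.849 in Basal (difference 1.01). Chromosome 8 from 4400001 to 4600000 had 1.33 in Early against 0.349 and 0.514 in Basal (difference 0.899), and the Late libraries, at 0.322 and 0.612, overlapped Basal. The rises on chromosome 15 between 7.35 and 7.65 Mb (0.971) and on chromosome 18 between 5.45 and 5.60 Mb (0.908) lost their call with the 10 Mb mean subtracted, and the chromosome 15 region also in the fit weighted by noise and without Basal replicate 1.

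By sign, 73 proximal bins (4.33%) were in A in Early and in B in both Basal libraries, and 76 (4.51%) were in B in Early and in A in both Basal libraries. Over all analysed bins these shares were 5.7% and 4.09%. Of the 76 bins 35 lay on chromosome 16. The bins in A in Early were spread over 12 chromosomes, with 11 each on chromosomes 5 and 6 and 10 each on chromosomes 8 and 18.

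**Figure D4:**
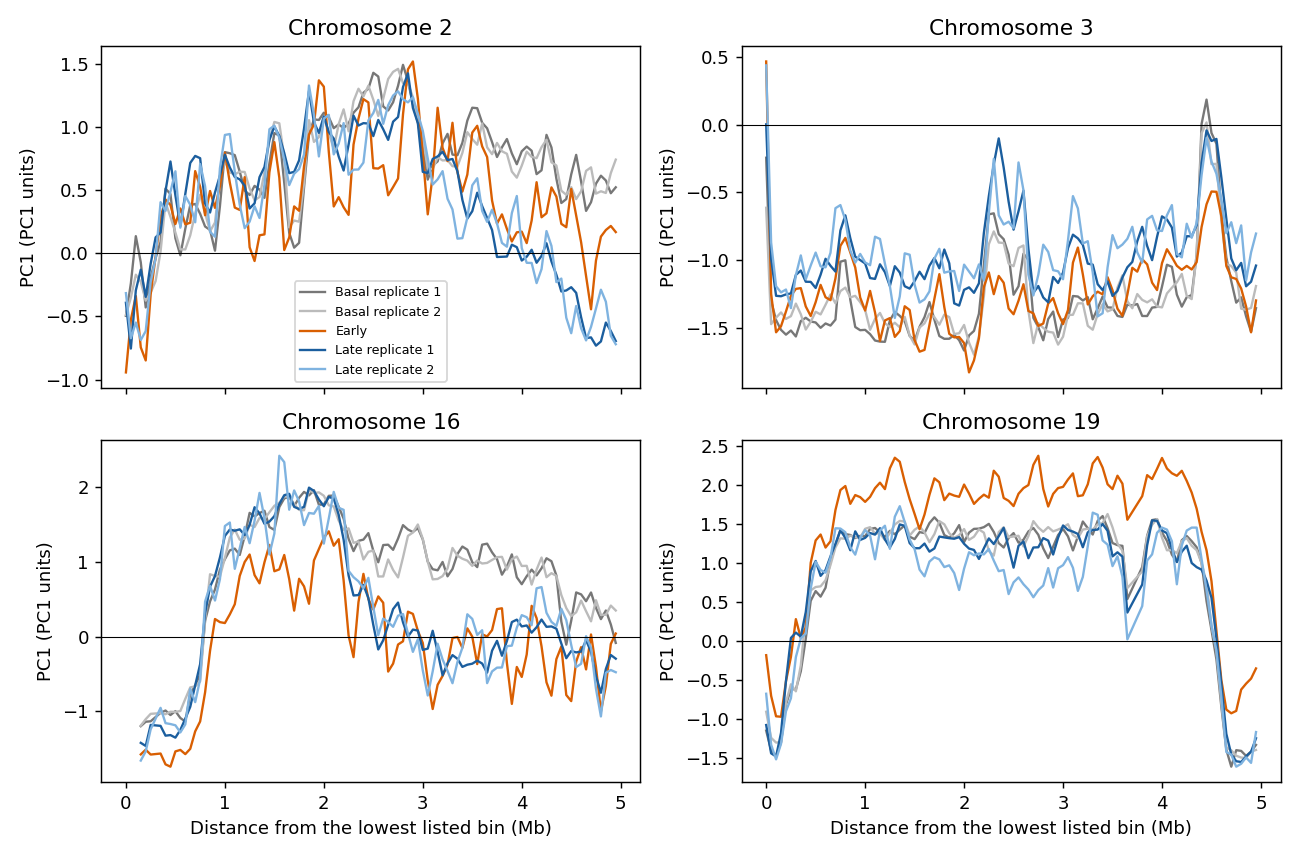
PC1 per 50 kb bin (y axis, PC1 units) against the distance from the lowest listed bin (x axis, Mb) on chromosomes 2, 3, 16 and 19, 1 line per library. On chromosome 16 the Late lines average below Basal in the first 0.5 Mb (6 bins). They lie near Basal between 1 and 2 Mb and below it in most bins beyond 3 Mb. On chromosome 3 the Late lines lie above Basal over most of the window, and on chromosome 19 Early lies above the other 4 libraries in most bins.

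The course along chromosome 16 differed between Early and Late. Its first 0.5 Mb averaged -1.09 and -1.06 for Basal, -1.61 for Early, and -1.32 and -1.28 for Late, so Early and both Late libraries were lower than Basal. Its A stretch from 4.60 to 5.05 Mb had 1.85 and 1.84 for Basal, 0.801 for Early, and 1.84 and 1.86 for Late. Beyond it, from 5.30 to 7.20 Mb, Basal stayed in A while Early and both Late libraries averaged near 0, with single bins on both sides of it. On chromosome 19 Early lay above Basal in most bins of the window. From 4.70 to 6.75 Mb the PC1 of chromosome 19 was 1.35 and 1.37 for Basal, 1.98 for Early, and 1.22 and 0.941 for Late. With a 10 Mb mean subtracted, 0 of the 98 bins of the chromosome 19 window were called higher in Early, against 51 without the subtraction. A 10 Mb mean reaches past the 5 Mb window on its inner side only, so it takes up part of a shift that spans a whole window. The chromosome 16 window differed by -0.090 between Early and Basal after the subtraction, and the chromosome 9 window still by -0.116.

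Late and Early were compared to ask where the chromosome starts differ between the 2 states. The proximal mean was -0.228 ± 0.0076 in Late (SD, n = 2) and -0.251 in Early, a difference of 0.0231 that was 0.00313 without chromosome 16. In limma 6 of the 17 windows were higher in Late, on chromosomes 1, 3, 4, 6, 9 and 16, and 2 were lower, on chromosomes 5 and 19. Over all 483 windows 22.2% were higher and 25.7% lower in Late. Chromosome 19 differed most, with 0.830 and 0.673 in Late against 1.45 in Early, a difference of -0.702 ± 0.068 (SE, limma adjusted p = 0.00435). Chromosome 16 had 0.298 and 0.298 in Late against -0.0564 in Early (0.354 ± 0.031 SE, limma adjusted p = 0.00361). Chromosomes 3 and 1 were higher by 0.309 and 0.263 (limma adjusted p = 0.00507 and 0.0105). Chromosomes 4, 5, 6 and 9 differed by 0.160, -0.140, 0.105 and 0.181 and were not called when either Basal library was left out, and 4 windows were then called. With quantile-normalized values the chromosome 9 difference was 0.0117 and not called. Without Late replicate 2, 13 windows were called.

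Per bin, limma called 139 proximal bins higher and 149 lower in Late than in Early, 8.25% and 8.84% of the members, against 6.28% and 6.44% of all analysed bins. The proximal share called was above that of the rest on 13 of 18 chromosomes. Of the lower bins 65 were on chromosome 19, and without that chromosome there were 84, 5.29% of 1587. Of the higher bins 30 were on chromosome 16, 17 on chromosome 1 and 16 on chromosome 13. With libraries weighted by their noise the counts were 34 and 17, and limma called 0 and 0 when all sequences were kept as deposited, where 330 and 276 of the members had an unadjusted p under 0.05 in the fit used here. Without Late replicate 1 they were 265 and 231, and without Late replicate 2 252 and 259.

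The named regions higher in Late than in Early spanned 100 to 700 kb. The largest difference was on chromosome 18 from 7600001 to 7700000, with -0.392 and -0.147 in Late against -1.67 in Early, a difference of 1.40 with a limma adjusted p of at most 0.00397 in 2 bins. Basal lay between them, at -0.886 and -1.03. The first 0.7 Mb of chromosome 13, from 3000001 to 3700000, had -0.796 and -0.869 in Late against -1.90 in Early (difference 1.07), with Basal at -1.03 and -1.11. Chromosome 15 near its start, from 3100001 to 3600000, had -0.703 and -0.844 in Late against -1.78 in Early (difference 1.00). On chromosomes 13 and 15 Early was thus the library apart, deeper in B than the other 4. The remaining named rises were on chromosome 16 between 4.60 and 5.05 Mb (1.05) and on chromosome 1 between 4.80 and 5.05 Mb (1.01), and both lost their call in the fit weighted by noise.

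Among the regions lower in Late than in Early, the longest spanned 2050 kb on chromosome 19 from 4700001 to 6750000. Its difference was -0.901, and it was -0.222 with the 10 Mb mean subtracted, where it was no longer called, as in the fit weighted by noise. The named regions on chromosome 8 (-0.964 between 4.40 and 4.55 Mb) and chromosome 19 (-0.937 between 6.85 and 7.35 Mb) kept their call in the fit weighted by noise, and that on chromosome 19 lost it with the mean subtracted. Those on chromosome 17 (-0.937 between 3.60 and 3.70 Mb) and chromosome 15 (-0.889 between 7.10 and 7.20 Mb) were not called in the weighted fit. By sign, 48 proximal bins (2.85%) were in A in both Late libraries and in B in Early, and 69 (4.09%) the reverse, against 3.46% and 4.1% of all analysed bins. Without Late replicate 1 there were 74 and 88, and without Late replicate 2 67 and 107.

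The genes of these windows could be given only by their order, because the gene table at hand (RefSeq, GRCm38.p6) is of another build than the bins. On chromosome 2 the protein-coding genes nearest the start were Fam171a1, Nmt2, Rpp38, Acbd7, Olah, Meig1, Dclre1c and, in place 8, Suv39h2. Suv39h2 encodes a histone H3 lysine 9 methyltransferase of pericentromeric heterochromatin, and Dclre1c encodes Artemis, a nuclease of V(D)J recombination and DNA repair. On chromosome 3 the order began Hnf4g, Zfhx4, Pex2 and Pkia. It went on to Il7, an interleukin, Stmn2, a regulator of microtubules in neurons, and Hey1, a Notch target. Chromosome 16 began with an olfactory receptor gene, Olfr161, followed by Mefv, which encodes pyrin, and the zinc finger genes Zfp263, Zfp174 and Zfp597, with Olfr15 among them. Rbfox1, which encodes a neuronal splicing factor, was in place 39 on that chromosome, between Eef2kmt and Tmem114. It was picked by name, whereas the other genes were listed because they come first in the order. Its place in the order does not fix its position among the bins. Chromosome 19 began with Ighmbp2, Mrpl21 and Cpt1a, the carnitine palmitoyltransferase of fatty acid oxidation. Tesmin, Gal, Ppp6r3, Lrp5, a Wnt co-receptor, and Kmt5b, a histone H4 lysine 20 methyltransferase, followed. No gene was assigned to a bin, and no level of any gene was measured.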

How the data were processed

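The deposited files give PC1 per 50 kb bin as a signed score, computed in 100 kb windows with HOMER on mm9, per the submitters' processing notes and the file names; no source used here gives versions, the aligner or read filters. Neighbouring bins share reads. Chromosomes were kept where every pair of libraries correlated with r of at least 0.5 (18 autosomes and X, 47652 bins). limma 3.58.1 in R 4.3.3 was fitted to the scores of all 5 libraries, per bin and per 5 Mb window of at least 50 bins, 2-sided, with Benjamini-Hochberg adjustment at 0.05 (2 residual degrees of freedom, prior 6.60 for bins and 3.15 for windows). Called proximal bins of a direction were merged across gaps of at most 1 bin; the 5 regions of at least 2 called bins with the largest mean difference were named per direction and comparison. Sign switches were counted without a test. The members, lists and rules were chosen with earlier results of these data known. Alternatives were other scalings, sets of bins, distances, weights, a replicate block and leaving out each library. The alternative with all sequences as deposited used all 50542 bins. It thus put chromosome 7, where the lowest correlation between a pair of libraries was -0.976, back into the shared spread and the adjustment. The rest was done with pandas 2.3.3, numpy 2.4.6 and scipy 1.17.1 under Python 3.11.15.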

Additional observations from a re-analysis of the deposited data

How the results depend on the processing

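Subtracting a 10 Mb running mean left 96 proximal bins higher and 119 lower in Early than in Basal and 59 lower in Late than in Early. Weighting by local noise gave 61 and 70 for Early against Basal and 34 and 17 for Late against Early. With all sequences as deposited, chromosome 7 included, the counts were 0 and 0 for Late against Basal. They were 31 and 49 for Early against Basal, and 0 and 0 for Late against Early, with unchanged differences. Not counting chromosome 16 left 68 bins lower in Late and 121 lower in Early than in Basal, and not counting chromosome 19 left 84 lower in Late than in Early; these 2 exclusions were chosen after seeing the data. Leaving out each library in turn gave 21 to 287 bins higher and 60 to 253 lower for Late against Basal, 70 to 318 and 84 to 353 for Early against Basal, and 93 to 265 and 101 to 259 for Late against Early. Called windows then ranged from 4 to 12, 4 to 14 and 4 to 13. The mean Late minus Basal difference turned to -0.016 over 10 Mb and to -0.0098 without the first 0.5 Mb. Early minus Basal was -0.0128 over 3 Mb, 0.0381 over 10 Mb, -0.0185 without the first 0.5 Mb, -0.00736 with quantile normalization and 0.0360 without chromosome 16. Late minus Early was 0.0561 over 3 Mb, -0.0542 over 10 Mb, 0.00865 without the first 0.5 Mb and 0.00313 without chromosome 16. Sign switches by at least 0.1 in each library, B to A and A to B, numbered 15 and 36 for Late against Basal, 44 and 43 for Early against Basal, and 27 and 37 for Late against Early. Leaving out a library gave 40 to 66 and 65 to 82 for Late against Basal, 82 to 87 A to B for Early against Basal, and 67 to 74 and 88 to 107 for Late against Early. The chromosome 9 window turned to 0.020 for Early minus Basal with quantile normalization. The causes of these shifts were not tested.

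Replicate numbers were shared between Basal and Late, but the replicates did not deviate together: the correlation of their within-group differences was 0.0101 over all bins and 0.0315 over proximal bins. With the replicate block the counts, higher and lower, were 144 and 128 for Late against Basal, 165 and 188 for Early against Basal and 123 and 148 for Late against Early, with 8, 7 and 9 windows. The chromosome 6 windows lost their call under it for Early against Basal (limma adjusted p = 0.0575) and for Late against Early (0.155). Of the 30 named regions, all kept their call under quantile normalization, on autosomes only, with a trend in the prior variance and with the replicate block. 12 lost it with the 10 Mb mean subtracted, 25 with all sequences as deposited and 6 with noise weights. Depth is unknown, so no counting error could be given, and the Early values rest on a single library.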
